A study of Homo sapiens with 18 samples.

Results

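The genes of glucose uptake and upper glycolysis examined here were SLC2A1, HK1, HK2, GPI, PFKL, PFKM, PFKP, PFKFB3, ALDOA and ALDOC. They were taken by name from the RefSeq annotation of the human genome, build GRCh38.p14 (hg38), and are 10 of its 19974 protein-coding genes on chromosomes 1 to 22 and X. In each deposited peak list, every peak whose summit lay inside one of these genes or within 2500 bp of either outer end was assigned to it. The study mapped MAX, the DNA-binding partner of MYC, by chromatin immunoprecipitation and sequencing with a reference genome from another species added (ChIP-Rx). The cells were U2OS, a human osteosarcoma line, with their own MYC knocked out and a doxycycline-inducible (Tet-On) MYC put back in 1 of 3 forms, wild type (WT), 3A or 7A, whose altered residues the sources used here do not give. Each form was grown for 24 h with doxycycline at 1 µg/ml or, as the uninduced group, for 24 h with PBS. Chromatin of mouse NIH3T3 fibroblasts, mixed in at 10% of cells, served as the reference in all groups. The knockout and the inducible transgene were shared by every group, and the sources used here do not say whether a line was 1 clone.

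The 18 libraries were 12 MAX immunoprecipitations, 2 replicates in each of 6 groups of MYC form and treatment, and 6 inputs. The labels name a MAX antibody for the immunoprecipitations while their protocol text describes an anti-FLAG antibody, and the label was followed. The deposited data were 1 peak list per MYC form, named for that form with both a plus and a minus sign, which held 34622 peaks (WT), 27294 (3A) and 25159 (7A). No list separates induced from uninduced cells or 1 replicate from another, so differences between the forms had no replicate check and none was tested. The fold enrichment and q-values of a peak are the authors' own, and a fold is the pile-up of sequenced fragments at the summit over the local background. A percentile here is the share of the peaks of the same list with an equal or lower fold. It places a peak within its own list, and since the lists differ in length a percentile that differs between lists shows no change in binding. Whole fragment counts at the summit could be recovered for 94.5%, 84.2% and 95.5% of the WT, 3A and 7A peaks, with medians of 202, 154 and 144 fragments. The ranges given after folds are 95% exact Poisson intervals from those counts with the background held fixed, and they cover counting error only. They leave out differences between replicates, and folds were not rescaled here by the mouse reference. Ranges that do not overlap between lists are thus a description and show no change in binding. The scale of the pile-up was inferred here, as the factor under which the most peaks of a sample gave whole fragment counts. It was 0.696 in the WT list, 0.689 in the 3A list and 1 in the 7A list, so fragment counts are compared only within a list.

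Glucose enters the cell through facilitative transporters, of which SLC2A1 (GLUT1) is the widespread basal form, and hexokinase traps it as glucose 6-phosphate. GPI converts this to fructose 6-phosphate, phosphofructokinase-1 adds another phosphate in the committed step, and aldolase splits the product into triose phosphates. PFKFB3 makes fructose 2,6-bisphosphate, a strong activator of phosphofructokinase-1. MYC and MAX bind DNA as a pair through E-box letters such as CACGTG, and several glycolytic genes are textbook MYC targets in tumour cells.

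The stretches below are the 250 bases before a transcription start, from RefSeq (GRCh38.p14), written 5′ to 3′ on the strand of the gene. Capitals mark CACGTG, which reads the same on both strands, and CACGCG or its reverse complement CGCGTG; the motifs were searched on both strands and do not overlap one another here. The HK2 stretches before its second start, chr2:74834920-74835169 (+), and its first start, chr2:74833877-74834126 (+), are shown because the order of their peaks differed between the lists. PFKFB3 before its second start, chr10:6202682-6202931 (+), and ALDOC, chr17:28576896-28577145 (-), are shown for a peak summit beside a single CACGTG. SLC2A1, chr1:42958869-42959118 (-), and PFKL, chr21:44299803-44300052 (+), are shown as stretches that every list covered whole and that held no CACGTG.
HK2 second start: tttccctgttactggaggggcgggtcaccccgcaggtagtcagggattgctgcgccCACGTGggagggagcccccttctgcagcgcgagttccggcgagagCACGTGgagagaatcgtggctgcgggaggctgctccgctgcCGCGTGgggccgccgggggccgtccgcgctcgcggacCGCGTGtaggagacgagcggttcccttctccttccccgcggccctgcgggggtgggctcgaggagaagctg
HK2 first start: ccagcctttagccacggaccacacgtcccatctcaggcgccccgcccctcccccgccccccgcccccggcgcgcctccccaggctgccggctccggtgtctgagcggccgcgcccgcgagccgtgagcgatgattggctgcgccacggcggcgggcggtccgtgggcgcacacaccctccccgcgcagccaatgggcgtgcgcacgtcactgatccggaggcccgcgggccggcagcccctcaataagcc
PFKFB3 second start: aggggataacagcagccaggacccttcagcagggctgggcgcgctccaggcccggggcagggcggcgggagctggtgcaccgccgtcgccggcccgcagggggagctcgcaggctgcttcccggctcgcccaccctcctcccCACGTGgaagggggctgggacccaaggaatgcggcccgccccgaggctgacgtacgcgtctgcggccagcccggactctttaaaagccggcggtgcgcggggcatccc
ALDOC: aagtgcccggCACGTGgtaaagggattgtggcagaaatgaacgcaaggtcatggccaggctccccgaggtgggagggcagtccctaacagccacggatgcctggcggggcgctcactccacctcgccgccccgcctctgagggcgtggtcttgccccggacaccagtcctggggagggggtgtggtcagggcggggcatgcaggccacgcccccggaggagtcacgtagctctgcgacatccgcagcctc
SLC2A1: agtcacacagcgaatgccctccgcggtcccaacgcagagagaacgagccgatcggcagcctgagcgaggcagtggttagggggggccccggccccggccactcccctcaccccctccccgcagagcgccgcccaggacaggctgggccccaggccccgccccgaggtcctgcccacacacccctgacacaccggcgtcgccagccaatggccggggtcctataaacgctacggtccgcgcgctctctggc
PFKL: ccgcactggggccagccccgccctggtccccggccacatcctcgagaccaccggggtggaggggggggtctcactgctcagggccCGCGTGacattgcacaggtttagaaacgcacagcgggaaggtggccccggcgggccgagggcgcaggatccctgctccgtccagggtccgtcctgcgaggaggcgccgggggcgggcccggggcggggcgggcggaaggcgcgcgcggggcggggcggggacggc

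In windows from 250 bases before to 50 bases after a start, CACGTG was found at 4 of the 10 genes, HK2, PFKFB3, ALDOA and ALDOC. By windows this was 4 of the 29 windows of the 10 genes (13.8%). Over all protein-coding genes it was found at 10.9% of the 15813 genes with a window and in 8.34% of the 22156 windows. Shares by genes, here and below, were not matched for the number of windows per gene. The window at the second HK2 start held CACGTG 2 times, and CGCGTG another 2 times. At least 2 CACGTG were found in 0.853% of all windows. Windows with a WT summit inside held CACGTG in 15.7% of 6253 cases and windows without one in 5.44% of 15903. The other motif, CACGCG or CGCGTG, was in 2 of the 29 windows (6.90%), at HK2 and PFKL, against 14.2% of all windows. By genes this was 2 of 10, against 18.1% of all genes with a window. These are matches of letters and were not tested as binding sites.

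All 10 genes had at least 1 MAX peak in every list. Over all protein-coding genes the same rule found a peak at 70.8% in the WT list, 67.7% in 3A, 66.7% in 7A and 65.7% in all 3. With a summit required within 2500 bp of an annotated start, 9 of the 10 genes had a peak in each list, and the exception each time was GPI. The background for that rule was 65.4% in WT, 63.1% in 3A, 62.2% in 7A and 61.3% in all 3, over the 15813 genes with an annotated start. A count of 9 of 10 has a 95% Clopper-Pearson interval of 55.5% to 99.7%, which takes in each of those background shares.

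The peaks at these genes numbered 33, 33 and 29 in the WT, 3A and 7A lists and merged into 34 sites. Of these, 29 sites were in all 3 lists. A 3A peak overlapped 31 of the 33 WT peaks at these genes (93.9%, Clopper-Pearson 79.8% to 99.3%), against 74% of all WT peaks and 79% of WT peaks at protein-coding genes. A 7A peak overlapped 30 of the 33 (90.9%, 75.7% to 98.1%), against 69.9% and 75.5%. The peaks come from 10 genes and are not independent of one another, so these intervals are too narrow to test against those shares. The genes were also chosen with earlier results of these data known. Their WT peaks had a higher median fold than all WT peaks, 14.0 against 10.7, and the shares were not matched for fold. In the reverse direction, 31 of 33 3A peaks (all 3A peaks 95.4%, at protein-coding genes 96.3%) and 29 of 29 7A peaks (96.6% and 97.3%) met a WT peak.

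The 34 sites fell into 3 positions. The 11 sites within 1000 bp of an annotated start, like the 3 sites past a gene's end, were in every list. The other 20 lay farther inside the genes, and 15 of them were in all lists, so the 5 sites missing from a list were all inside gene bodies. Missing sites were not counted by position over all genes, so this cannot be called particular to these genes. The summits of the 29 shared sites lay a median of 21 bp apart between lists (3 to 701 bp), and 22 of them within 100 bp. Among the shared sites the WT percentile was above both mutants at 8, below both at 9 and between them at 12. Near a start, WT was highest at 5 sites and lowest at 1, while inside the genes it was highest at 3 and lowest at 7. The order by position was also not counted over all genes, and most of the shared inner sites were in PFKFB3 and SLC2A1.

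**Figure D1:**
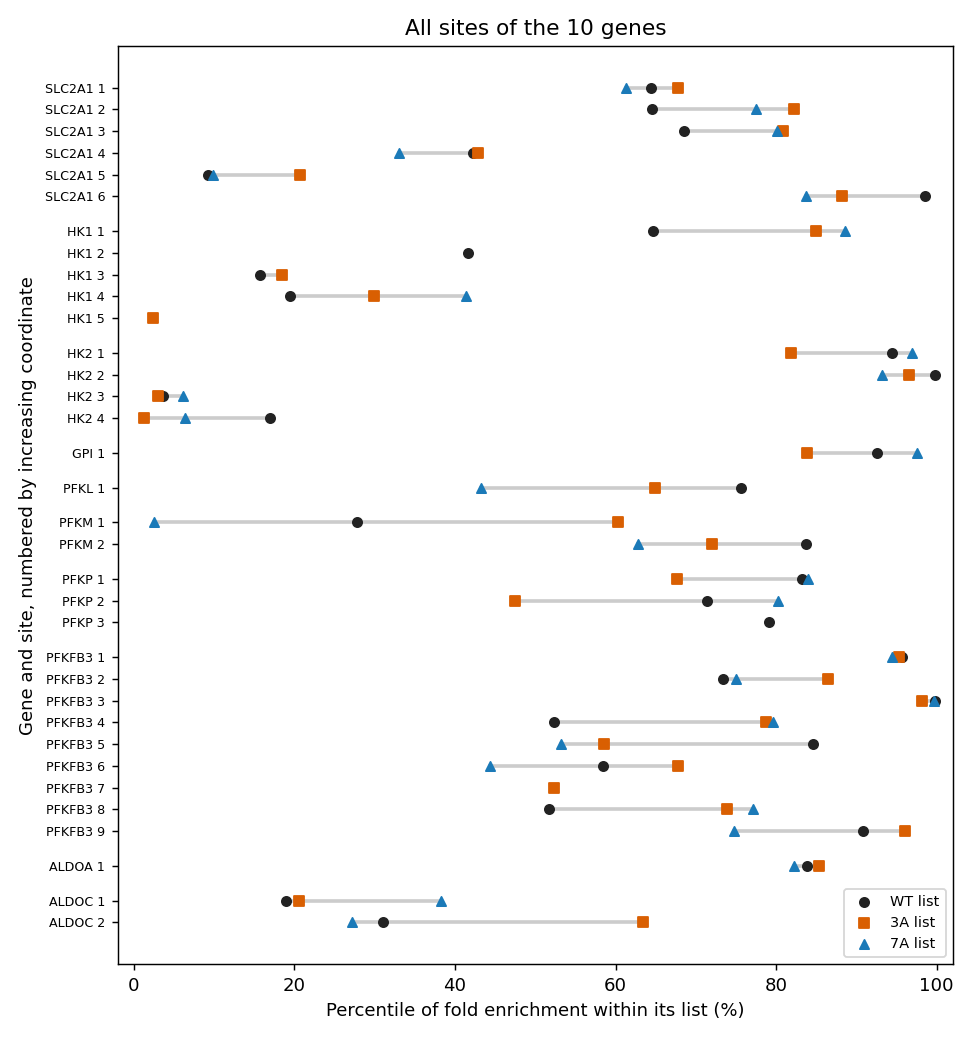
Percentile of fold enrichment within its own list (x axis, %) for each of the 34 sites (y axis, gene and site number by increasing coordinate); a grey bar joins the lists that hold the site. Of the sites, 29 carry all 3 symbols, and the WT circle is rightmost at 8 of these and leftmost at 9.

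At the median, the peaks at these genes were wider and had a higher fold than the peaks of the same list. Their median width was 754 bp in WT, 697 bp in 3A and 853 bp in 7A, against 552, 578 and 672 bp for all peaks. Their median fold was 14.0, 14.6 and 17.0, against 10.7, 11.01 and 11.1. All peaks of a list include those away from genes, and medians over the peaks at genes alone were not taken. The strongest peak of each gene had a median percentile of 83.8 for WT, 84.4 for 3A and 83.8 for 7A. For all protein-coding genes with a peak the medians were 74.7, 71.0 and 68.5. The strongest peak is a maximum over the peaks of a gene. These genes had a median of 2.5, 2 and 2 peaks in the WT, 3A and 7A lists, against 1 per gene with a peak in each. The part of peak number in the higher medians was not tested. The strongest peak ranked highest in WT for 5 of the 10 genes (SLC2A1, HK2, PFKL, PFKM and PFKFB3) and lowest in WT for 2 (HK1 and ALDOC), as for 46.9% and 24.0% of the 13113 genes with a peak in all lists. Ordered by q-value in place of fold, the strongest peak ranked highest in WT for 8 of the 10 genes and lowest for 1. PFKP (73.0 against 48.3 in 3A and 53.8 in 7A), ALDOA (89.0 against 87.3 and 83.9) and ALDOC (57.5 against 56.9 and 48.8) then joined the genes that ranked highest in WT. The order by q-value was not counted over all genes, so the 46.9% and 24.0% by fold are no background for it.

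**Figure D2:**
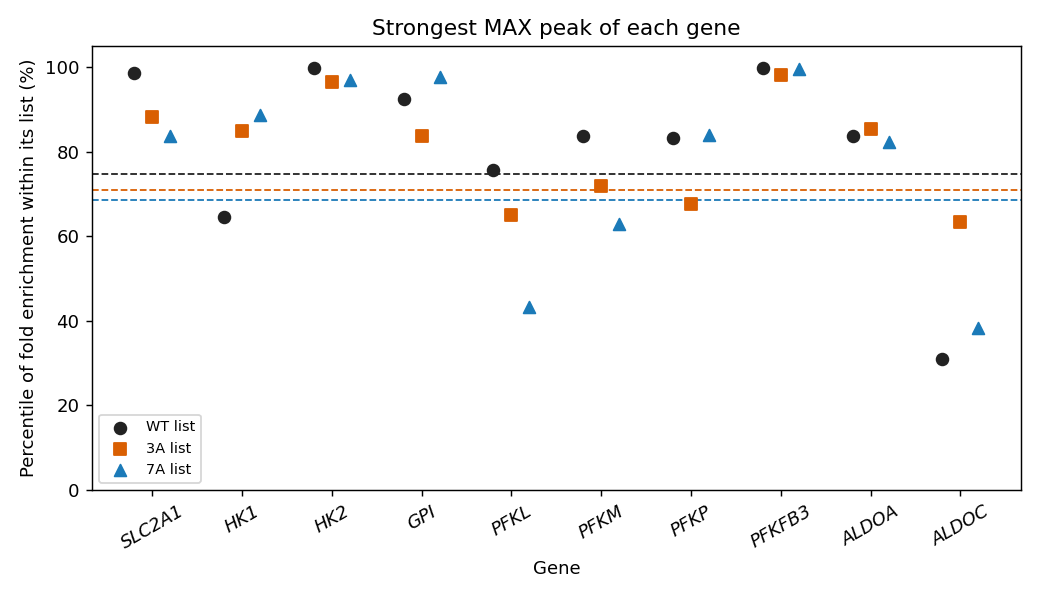
Percentile of the strongest peak of each gene (y axis, %) in the WT, 3A and 7A lists; dashed lines are the medians over all protein-coding genes with a peak in that list, in the same colours. HK2 and PFKFB3 stand at percentiles of 96.5 or more in every list, and ALDOC lies lowest of the 10 genes in each.

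SLC2A1 (chr1:42925353-42958868, minus strand), the basal glucose transporter gene, had 6 sites, each in all 3 lists. The peak over its start had a fold of 66.3 (62.8 to 70.0) in WT, 24.3 (21.8 to 27.0) in 3A and 21.2 (18.9 to 23.6) in 7A. Its summit lay 496, 526 and 516 bp inside the gene and rested on 1346, 334 and 316 fragments. It was the strongest SLC2A1 peak in all lists, at percentiles of 98.6, 88.3 and 83.7, and the WT interval stood clear of both mutants. The printed stretch before the start lies wholly under this peak in each list.

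The 2 strongest SLC2A1 sites inside the gene had the opposite order. At 17.6 kb from the start the fold was 15.3 (14.1 to 16.5) in WT, 19.2 (17.4 to 21.2) in 3A and 19.2 (17.4 to 21.2) in 7A. At 22.1 kb it was 14.0 (12.7 to 15.4) in WT, with 20.0 (18.1 to 21.99) in 3A and 18.0 (16.1 to 20.0) in 7A. At both, the WT interval lay below those of the mutants. The start site was thus 4.34 times the 17.6 kb site in WT, 1.26 times in 3A and 1.10 times in 7A. By fragments alone, without the background, the ratio was 2.20 in WT but 0.801 in 3A and 0.802 in 7A, where the inner site held more fragments. The background at the inner site was 27.0, 14.0 and 19.6 in the WT, 3A and 7A lists, and at the start 13.1, 8.52 and 14.0. The part of the background in such differences of fold was not tested, here or at the sites that follow. The remaining sites of the gene were alike across lists or weak: 14.0, 14.6 and 13.2 past its end, 9.35, 9.97 and 8.63 at 15.5 kb, and 5.07, 7.13 and 5.72 at 8.39 kb.

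HK2 (chr2:74834127-74893359, plus strand) encodes the inducible hexokinase of many tumour cells and has 2 annotated starts, at 74834127 and 74835170. Each start had its own peak in every list. The peak before the second start had a fold of 115.9 (112.1 to 119.8) in WT, rank 65 of 34622. In 3A it was 39.8 (37.0 to 42.7), rank 945, and in 7A 31.2 (28.9 to 33.7), rank 1703. These rested on 3478, 749 and 670 fragments, the most recovered for any peak at these genes in WT and in 3A.

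The peak before the first HK2 start had a fold of 39.3 (36.2 to 42.6) in WT, 19.8 (17.6 to 22.1) in 3A and 43.0 (38.7 to 47.6) in 7A. WT and 7A overlapped there and 3A was below both. The second start was therefore 2.95 times the first in WT and 2.01 times in 3A, but 0.727 times in 7A. By fragments the second start exceeded the first in all lists, 5.81, 2.39 and 1.84 times, so the reversal in 7A appeared only with the background taken in. In 7A the background was 20.5 at the second start and 7.49 at the first, in WT 19.9 and 9.63, and in 3A 12.0 and 10.0.

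The summit at the second HK2 start lay on base 101 of the printed stretch in WT, 98 in 3A and 93 in 7A. That is 3.5, 6.5 and 11.5 bp from the centre of the CACGTG nearer the start, and 41.5, 38.5 and 33.5 bp from the other. At the first start the summits lay on bases 109, 102 and 113 of a stretch with no capital run. The other HK2 peaks were weak in every list, with folds of 4.16, 4.59 and 5.17 at 11.5 kb and 6.04, 4.03 and 5.19 at 31.4 kb.

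HK1 (chr10:69270000-69401882, plus strand), the hexokinase found in most tissues, had 5 sites, of which only 2 were in all lists. The main one lay 354, 345 and 348 bp inside the start at 69318181, 1 of its 7 annotated starts. Its fold was 14.0 (12.8 to 15.3) in WT, 21.6 (19.5 to 23.9) in 3A and 25.0 (22.8 to 27.3) in 7A. The WT interval lay below both mutants, at percentiles of 64.6, 84.9 and 88.6. It rested on 503, 385 and 495 fragments over backgrounds of 24.0, 11.3 and 18.9, and was wide in each list, 2009, 1852 and 1759 bp. A WT percentile this far below was seen for few genes: 8.46% of the genes with a peak in all lists had a lower WT-minus-3A difference and 5.35% a lower WT-minus-7A difference.

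The inner HK1 sites were weak. A peak at 106 kb from the outer start had folds of 6.33, 8.26 and 9.70 in WT, 3A and 7A. A peak at 90.9 kb had 5.88 in WT and 6.86 in 3A with none in 7A. The WT list alone held a peak at 83.2 kb with a fold of 9.26 (7.60 to 11.2) on 105 fragments, and 12.8% of WT peaks at least as strong also met no mutant peak. The 3A list alone held one at 113 kb with a fold of 4.42, at a percentile of 2.35 within its list. A peak missing from a list is below the authors' threshold there, and binding under it was not measured.

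GPI (chr19:34359718-34402413, plus strand), glucose 6-phosphate isomerase, had no peak at its own start in any list. Its single peak lay 2350, 1874 and 1877 bp past its end, and 364, 112 and 109 bp from the start of the neighbouring gene PDCD2L at 34404399. The fold was 34.6 (32.4 to 37.0) in WT, 21.0 (19.0 to 23.1) in 3A and 47.1 (43.2 to 51.3) in 7A, on 894, 394 and 529 fragments. The 3 intervals did not overlap, with 7A above WT and 3A lowest. GPI was thus counted through a peak that lies nearest to another gene, and at 1000 bp from its ends it would have had none.

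Phosphofructokinase-1 is built from 3 related subunits, named for liver (PFKL), muscle (PFKM) and platelet (PFKP). PFKL (chr21:44300053-44327373, plus strand) had 1 peak over its start in each list. Folds were 18.1 (16.3 to 20.2) in WT, 13.9 (11.7 to 16.4) in 3A and 9.98 (8.40 to 11.8) in 7A, on 333, 140 and 139 fragments over backgrounds of 11.8, 6.0 and 13.0. WT and 7A did not overlap, while 3A reached into the range of WT and touched that of 7A. The percentiles were 75.6, 65.0 and 43.2, and 89.9% of genes had a smaller WT-minus-7A difference. The peaks had like extents, 1538, 1454 and 1574 bp, but their summits lay 34 bp before the start in WT, 365 bp after it in 3A and 277 bp before it in 7A. The single CGCGTG of the printed stretch was 128.5, 527.5 and 114.5 bp from them.

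PFKM (chr12:48105353-48146404, plus strand) had 2 sites in all lists. The stronger lay 14.4 kb inside the gene, with a fold of 23.2 (21.4 to 25.2) in WT, 15.8 (13.3 to 18.6) in 3A and 13.6 (11.1 to 16.3) in 7A. WT stood clear of both mutants, which overlapped each other. The weaker lay at the PFKM starts, where SENP1, transcribed the other way, has its outer start at 48106079. The WT and 3A summits lay 219 and 216 bp inside SENP1 and the 7A summit 257 bp outside it. The nearest annotated SENP1 start was 5, 8 and 257 bp from the WT, 3A and 7A summits, and the nearest PFKM start 13, 10 and 220 bp. There the fold was 7.37 (6.34 to 8.51) in WT, 12.9 (10.8 to 15.3) in 3A and 4.42 (3.59 to 5.37) in 7A, with 3A highest. Backgrounds at that site were 16.1, 5.75 and 21.4 in the same order, on 180, 125 and 98 fragments.

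PFKP (chr10:3067548-3136805, plus strand) had 3 sites. The one at its starts had a fold of 22.8 (20.2 to 25.6) in WT, 14.5 (11.9 to 17.6) in 3A and 21.3 (17.4 to 25.9) in 7A. WT and 7A overlapped and 3A lay below WT. Its width was 2026 bp in WT and 2002 bp in 3A but 1314 bp in 7A. At 23.6 kb the folds were 16.3, 10.6 and 19.3, again with 3A lowest.

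The WT list alone held a PFKP peak at 28.3 kb (chr10:3095329-3096385), 1057 bp wide, with a fold of 20.0 (16.9 to 23.5) on 142 fragments over a background of 4.00. It ranked 7242 of 34622. Of the WT peaks at least this strong, 3.44% met neither mutant list. It was the strongest peak at these genes that was missing from any list.

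PFKFB3 (chr10:6144921-6326637, plus strand), the maker of the phosphofructokinase-1 activator, had 9 sites, the most of the 10 genes, and 8 of them were in all lists. Its strongest peak lay 18.9 kb inside the gene in each list (WT chr10:6163425-6164393). The fold there was 117.9 (111.7 to 124.4) in WT, 49.0 (45.2 to 52.9) in 3A and 84.9 (78.7 to 91.4) in 7A, on 1354, 638 and 703 fragments. The 3 intervals did not overlap. It ranked 63, 489 and 96 in the 3 lists, the highest rank of the 10 genes in every list, and backgrounds were alike at 7.0, 8.0 and 7.30. Summits lay within 13 bp.

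The peak at the first PFKFB3 start had folds of 43.6 (40.1 to 47.3), 35.6 (31.5 to 40.1) and 34.0 (29.96 to 38.5) in WT, 3A and 7A, with the 3A interval reaching just into that of WT. The 18.9 kb site was 2.71 times it in WT, 1.38 times in 3A and 2.49 times in 7A. By fragments the ratios were 2.41, 2.39 and 2.80. At the second start the folds were 24.0 (20.8 to 27.4), 12.5 (10.0 to 15.5) and 11.6 (9.27 to 14.4), with WT clear of both mutants. Its summit lay 4.5 bp from the centre of the CACGTG printed above in WT, 31.5 bp in 3A and 186.5 bp in 7A. In 7A 1 peak of 2074 bp covered this start and the place at 59.5 kb where WT and 3A had a further weak peak, with folds of 5.59 and 3.70.

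The other inner PFKFB3 sites followed no single order. At 47.6 kb the folds were 11.1, 18.2 and 18.9, and at 130.5 kb 10.99 (9.84 to 12.2), 16.4 (14.5 to 18.5) and 17.8 (15.7 to 20.2). At the latter site WT lay below both mutants. At 154.5 kb they were 31.4, 37.5 and 16.9, with 7A lowest. At 12.7 kb they were 17.1, 22.7 and 17.0, and at 74.3 kb 12.4, 14.6 and 10.1. The 3A list alone held a peak at 94.5 kb, with a fold of 11.4 and a percentile of 52.3.

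**Figure D3:**
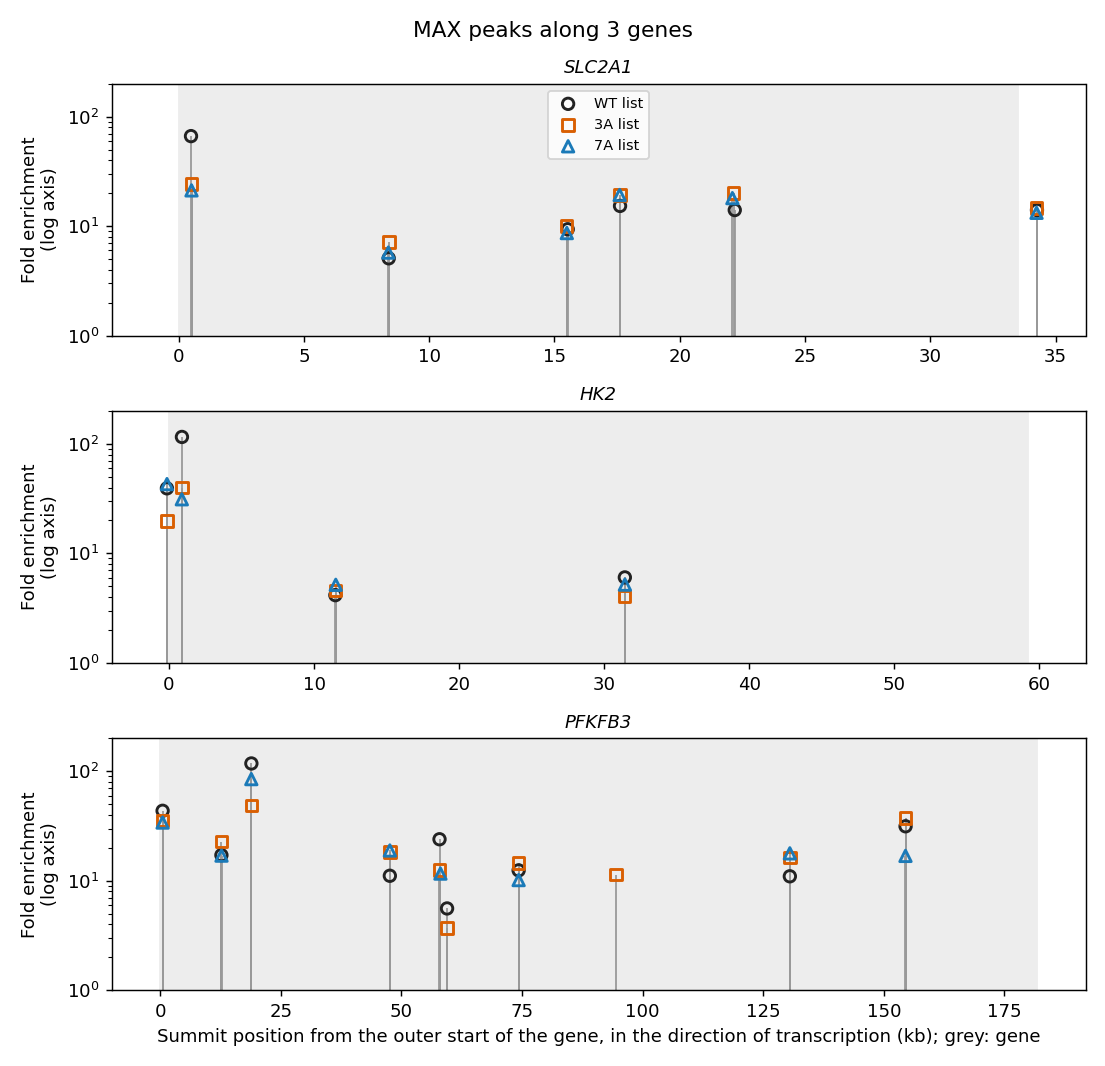
Fold enrichment of each peak (y axis, log scale) against its summit position from the outer start (x axis, kb, in the direction of transcription) for SLC2A1, HK2 and PFKFB3; the grey area is the gene. WT is the highest symbol at the SLC2A1 start (66.3), at the second HK2 start (115.9) and 18.9 kb inside PFKFB3 (117.9), and the lowest at 17.6 kb in SLC2A1 (15.3).

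**Figure D4:**
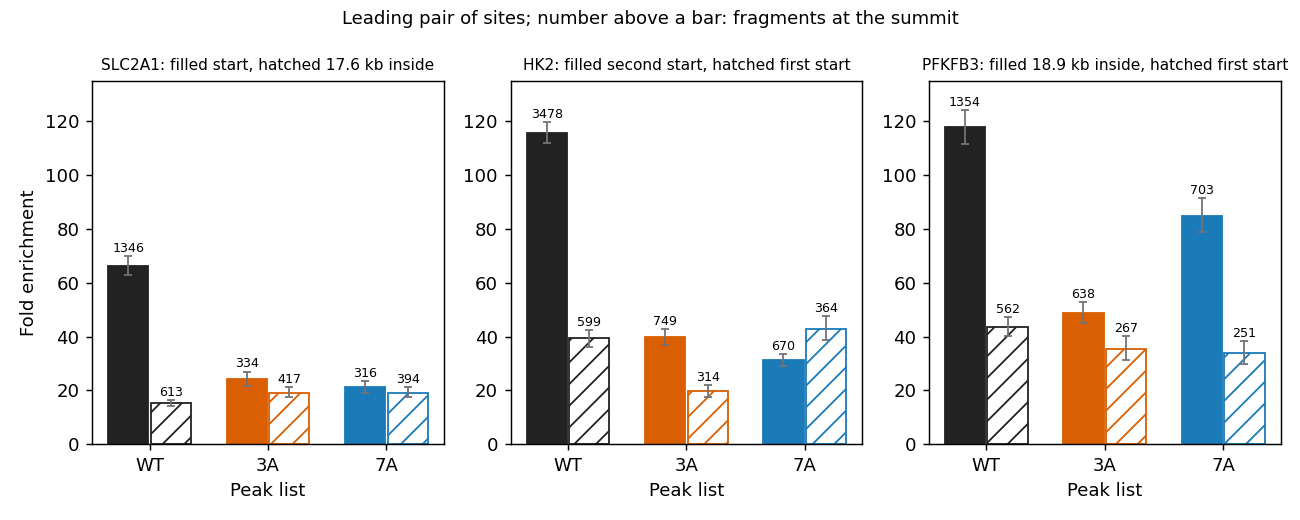
Fold enrichment (y axis) at a pair of sites in SLC2A1, HK2 and PFKFB3 for each list; error bars are 95% Poisson intervals for counting error at fixed background, and the number over each bar is the fragments at the summit. The filled bar is the taller in every pair except HK2 in 7A, at 31.2 against 43.0, where it still has more fragments, 670 against 364.

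By the percentiles of the strongest peak in the 3 lists, the protein-coding genes most like PFKFB3 were YBX2, WEE1 and PDXK. Their Euclidean distances from it were 0.141, 0.3001 and 0.319 percentile points over the 3 lists. YBX2 had folds of 105.8, 48.4 and 78.5 in the WT, 3A and 7A lists. WEE1, a kinase that holds back entry into mitosis, had 94.2, 50.01 and 93.2, and PDXK, pyridoxal kinase, had 130.7, 51.8 and 75.9. The likeness is over 3 values only.

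The aldolase genes differed from each other. ALDOA (chr16:30064279-30070420, plus strand), the muscle and general aldolase, had 1 peak in each list, the widest at these genes, 2934, 2143 and 2432 bp. Its fold was 23.3 (21.5 to 25.2) in WT, 21.9 (19.6 to 24.5) in 3A and 20.3 (18.0 to 22.9) in 7A. The 3 intervals overlapped, and the percentiles were 83.8, 85.3 and 82.2. The summits lay 418, 433 and 417 bp before the start at 30065760, and 954.5, 939.5 and 955.5 bp from the CACGTG of an earlier ALDOA window. The peak also lies inside the annotated gene LOC112694756, which runs over ALDOA on the same strand.

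ALDOC (chr17:28573120-28576895, minus strand), the brain-type aldolase, had the lowest strongest peak of the 10 genes in each list. At its start the fold was 7.77 (6.92 to 8.70) in WT, 13.6 (11.5 to 16.0) in 3A and 7.91 (6.51 to 9.52) in 7A, so 3A stood above the other lists. The fragments were 300, 143 and 110 over backgrounds of 26, 6.33 and 13.0. The summit lay on base 24 of the printed stretch in WT, 136 in 3A and 45 in 7A, which is 10.5, 122.5 and 31.5 bp from the centre of its CACGTG. ALDOC's other site, past its end and 573, 70 and 128 bp from the start of PIGS, had folds of 6.28 (5.42 to 7.24), 7.13 (5.98 to 8.43) and 9.31 (7.88 to 10.9). That site was the stronger of the pair in 7A.

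Genes around these steps were counted from lists of the pathway. Among 10 paralogues of the transporters and enzymes, 9 had a peak in all 3 lists and HK3 in none, with median percentiles of the strongest peak of 58.8, 63.9 and 49.2 in the WT, 3A and 7A lists. HKDC1, a hexokinase-like gene, led them in WT, with folds of 34.7, 15.9 and 26.2. Among 8 opposing and side enzymes 4 had a peak in all lists, and FBP1, FBP2, G6PC1 and GCKR had none; the median percentiles of those with a peak were 91.8, 75.0 and 81.7. G6PC3, a widespread glucose 6-phosphatase, led with 132.2, 117.2 and 112.1. All 7 pentose phosphate genes had a peak in all lists (median percentiles 82.5, 82.0 and 74.1), and RPIA, ribose 5-phosphate isomerase, had the strongest WT peak, with folds of 59.7, 27.2 and 16.7. All 11 lower glycolysis genes did too (96.9, 92.8 and 93.8), and LDHA, a lactate dehydrogenase subunit, had the strongest WT peak, with 100.3, 57.8 and 64.6. LDHA did not lead in the mutant lists. PGK1 and ENO1 were named after their values were seen. PGK1, phosphoglycerate kinase, had 53.8, 311.3 and 40.2, the strongest of these genes in 3A. No peak of the whole 3A list had a higher fold, and the PGK1 percentiles were 97.4, 100 and 96.4. That 3A value has no replicate, and its cause was not tested. ENO1, an enolase, had 85.5, 76.4 and 96.3, the strongest in 7A. The background for a peak in all lists is the 65.7% given above. The 10 genes of uptake and upper glycolysis, with medians of 83.8, 84.4 and 83.8, lay above the paralogues and the pentose phosphate genes and below the lower glycolysis genes in each list. They lay below the opposing and side enzymes in WT and above them in 3A and 7A. No difference was tested.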

How the data were processed

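The members and the pathway lists were chosen with earlier results of these data known, and 1 listed paralogue is not reported here. The deposited lists are narrowPeak tables; per the submitters' processing notes the tools included MACS2, Picard, SAMtools, Bowtie2 and Cutadapt, with human (hg19, hg38) and mouse (mm10) builds, and the sources used here do not give the control libraries or any pooling of replicates. The authors deposited, per peak, its positions, a score, a fold enrichment (ratio over local background), and −log10 p and −log10 q; no −log10 q was under 5.15 (WT), 5.04 (3A) or 5.69 (7A). Positions were read as hg38 and matched to the RefSeq gene table (GRCh38.p14) by exact symbol, 10 of 10; exon and intron annotation was not analysed here. Peaks were taken by summit (2500 bp), joined into 1 site where they overlapped, and called overlapping from 1 bp. With 1 added to pile-up and background, fragments at the summit were solved from fold and −log10 p with the MACS2 formulas, as the whole number that fits both to a relative tolerance of 1e-05 (tested on simulated data). Peaks described singly were the strongest of each gene per list and those in 1 or 2 lists, with the remaining sites given by value; genes like PFKFB3 were chosen by distance of percentiles, PFKFB3 having the highest WT percentile. No test across genes was made, because each form has 1 list, and the Clopper-Pearson intervals set beside background shares are descriptive. Alternatives were other windows, ranks by q, lists cut to equal length, a −log10 q of at least 10 and a 50% overlap. Summits within 100 bp of each other and peaks joined within 100 bp were also tried. Columns of other samples numbered 0. Python 3.11.15, NumPy 2.4.6, pandas 2.3.3, SciPy 1.17.1 and matplotlib 3.10.9 were used.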

Additional observations from a re-analysis of the deposited data

How the results depend on the processing

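No paired analysis was possible because the lists carry no replicate numbers. With only summits within 2500 bp of an annotated start, the peaks at these genes numbered 12, 12 and 11 (WT, 3A, 7A). The median percentile of the strongest peak in WT became 77.6 with the lists at equal length, 83.2 with starts only and 88.1 with ranks by q. In 3A it became 83.0 at equal length, 84.9 with starts only and also within 1000 bp, 85.1 inside the genes only and 88.9 by q, and in 7A 86.8 by q. WT peaks at these genes with a mutant summit within 100 bp were 78.8% for 3A and 69.7% for 7A. The share under this rule was not taken over all WT peaks, so the shares for overlap are no background for it. Fragments in place of fold, an alternative chosen after seeing the data, reversed the order of the paired sites for SLC2A1 in 3A (0.801) and 7A (0.802) and for HK2 in 7A (1.84). HK1 stayed lowest in WT, and SLC2A1, HK2 and PFKFB3 highest, under each window, rank and length tried; PFKM was between the mutants with starts only, PFKP, ALDOA and ALDOC were highest in WT by q, ALDOA was lowest at equal length, and ALDOC was between them by its start site. The cause of these shifts was not tested. With summits inside the genes only, members with a peak fell from 10 in each list to 7, 8 and 7 (WT, 3A, 7A). Their peaks fell from 33, 33 and 29 to 27, 28 and 23. Within 1000 bp, and with starts only, 9 genes had a peak in each list. For the rules of 1000 bp and of inside only, the share over all genes was not counted, so these counts have no background. Fragment counts were recovered for fewer 3A peaks than WT or 7A peaks, and a fold without one carries no interval.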
